A study of Mus musculus with 6 samples.

Results

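A set of 8 entries of the mouse miRNA catalogue, whose hairpins overlap genes of small nucleolar RNAs (snoRNAs) or small Cajal body RNAs (scaRNAs), was followed in immune cells of the liver. They are miR-5121, miR-3535, miR-1839-5p, miR-1843a-3p, miR-1843a-5p, miR-1843b-5p, miR-3068-5p and miR-664-3p, taken by name from the 1960 mature miRNAs listed in the deposited table. All 8 of 8 passed the filter on low counts that left 297 miRNAs for testing. The libraries came from liver immune cells of wildtype female C57BL/6J mice 10 weeks of age, with 2 libraries labelled as biological replicates in each of 3 groups. The Vehicle group was given DMSO in corn oil and is labelled as free of disease. The ConA+Vehicle group was given concanavalin A (ConA), a lectin that activates T cells and brings on immune hepatitis, at 12.5 mg/kg by the retro-orbital route. The ConA+D8THC group was given the same ConA dose together with delta-8-tetrahydrocannabinol (D8THC), a cannabinoid, by intraperitoneal injection. D8THC was dosed at 20 mg/kg in 100 µL, first 15 to 18 h ahead of ConA and a second time 30 min after it. Whether a library holds 1 mouse or a pool, and whether the replicates were handled apart, is not given in the sources used here, so p-values measure the spread between these libraries only.

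SnoRNAs are stable RNAs of the nucleolus that guide chemical modification of ribosomal RNA, and scaRNAs do the same for spliceosomal RNAs in Cajal bodies. Box C/D snoRNAs carry a C box near the 5′ end and a D box near the 3′ end and guide ribose methylation, while box H/ACA RNAs fold into a pair of hairpins, end in an ACA box and guide pseudouridylation. Most are cut out of introns of host genes, and pieces of some of them have been catalogued as miRNAs, either because the H/ACA hairpin resembles a miRNA precursor or because a short piece of the snoRNA was cloned. A count for such an entry can therefore come from a miRNA-like product or from a piece of the snoRNA, and the deposited counts do not separate these.

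The mature sequences, from RefSeq on build GRCm38.p6, are printed because they show which stretch of each snoRNA or scaRNA gene the entry matches. All 8 were matched by name. Capitals mark the seed, bases 2 to 8 from the 5′ end.
miR-5121: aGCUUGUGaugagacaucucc
miR-3535: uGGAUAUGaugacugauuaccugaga
miR-1839-5p: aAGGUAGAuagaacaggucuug
miR-1843a-5p: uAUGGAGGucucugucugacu
miR-1843b-5p: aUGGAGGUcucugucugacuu
miR-1843a-3p: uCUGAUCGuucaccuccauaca
miR-3068-5p: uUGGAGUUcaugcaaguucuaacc
miR-664-3p: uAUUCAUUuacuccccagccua
No seed was shared between any of the 8 entries, and 0 of the other listed entries with a RefSeq sequence carried one of these seeds. miR-1843a-5p and miR-1843b-5p have in common a run of 20 of their 21 bases, shifted by a base, so that reads can be divided between them and their separate values are uncertain.

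The label was borne out by the annotation for all 8 entries. GENCODE M21, which is on the mm10 build named in the submitters' processing notes, places each mature entry wholly inside a snoRNA or scaRNA gene on the same strand. miR-5121 (chr7:45126925-45126945, minus strand) lies in Snord33, within an intron of 13 of the 15 spanning transcripts of Rpl13a, a ribosomal protein gene. Snord33 and its neighbours in Rpl13a are known from work on lipotoxic and oxidative stress. miR-3535 (chr1:86352062-86352087, minus strand) lies in the snoRNA gene Gm24148, within an intron of all 3 spanning transcripts of Ncl, which encodes the nucleolar protein nucleolin, and an exon of 1 shorter Ncl transcript overlaps the 3′ end of the entry. miR-1839-5p (chr7:81529919-81529940, plus strand) lies in a scaRNA gene that GENCODE also names Mir1839, inside the long non-coding RNA gene 2900076A07Rik, where 1 of 3 spanning transcripts has it in an exon. The arms miR-1843a-5p (chr12:80391654-80391674) and miR-1843a-3p (chr12:80391615-80391636) lie on the minus strand in Scarna3b, in an intron of Dcaf5, and miR-1843b-5p (chr1:159340362-159340382, plus strand) lies in Scarna3a, in an intron of the ubiquitin ligase gene Cop1. miR-3068-5p (chr12:87437724-87437747, minus strand) lies in a snoRNA gene that carries the name Mir3068, in an intron of Alkbh1. It also lies in an exon of 1 of 1 spanning transcripts of the long non-coding RNA gene Gm29362. miR-664-3p (chr1:185243012-185243033, plus strand) lies in Snora36b, in an intron of Rab3gap2.

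The 8 entries fell into separate kinds by the boxes of the overlapping gene. A gene was taken as C/D when it held TGATGA within its first 20 nt and CTGA within its last 14 nt, and as H/ACA when it held ACA within its last 8 nt, read on the strand of the gene. Of 1558 GENCODE snoRNA and scaRNA genes, 307 (19.7%) met the first rule, 741 (47.6%) the second and 12 both. Snord33 and Gm24148 met the C/D rule, and the genes of the other 6 entries met the H/ACA rule. The C/D genes, with the counted entry in capitals, are shown because both entries sit at the 5′ end of the snoRNA.
Snord33: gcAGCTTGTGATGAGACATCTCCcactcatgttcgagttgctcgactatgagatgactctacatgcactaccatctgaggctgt
Gm24148: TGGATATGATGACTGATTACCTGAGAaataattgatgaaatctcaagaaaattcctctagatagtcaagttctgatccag
miR-3535 is the first 26 of the 80 nt of Gm24148, and miR-5121 covers nt 3 to 23 of the 84 nt of Snord33. RefSeq starts Snord33 later than GENCODE, and by RefSeq miR-5121 begins at nt 1 of the snoRNA. Both entries hold the whole TGATGA box, at nt 9 to 14 of Snord33 and nt 7 to 12 of Gm24148, and UGAUGA occurs in 12 of the 1671 listed entries with a RefSeq sequence (0.72%). The catalogued hairpin of miR-5121 covers only 30 nt of Snord33, whereas that of miR-3535 contains all 80 nt of Gm24148.

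By GENCODE gene ends, each of the 6 counted entries in the H/ACA genes lies beyond the midpoint of its gene. The second hairpin of an H/ACA RNA is found there. RefSeq starts Scarna3a later, and by RefSeq miR-1843b-5p begins at nt 56 of 118 nt, ahead of the midpoint. Scarna3b is shown with both arms of miR-1843a in capitals, and the Mir1839 scaRNA with miR-1839-5p in capitals. They set the position of H/ACA entries beside that of the C/D entries.
Scarna3b: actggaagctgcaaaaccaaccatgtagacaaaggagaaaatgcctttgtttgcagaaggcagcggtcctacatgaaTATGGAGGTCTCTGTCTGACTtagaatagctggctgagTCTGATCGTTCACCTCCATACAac
Mir1839 scaRNA: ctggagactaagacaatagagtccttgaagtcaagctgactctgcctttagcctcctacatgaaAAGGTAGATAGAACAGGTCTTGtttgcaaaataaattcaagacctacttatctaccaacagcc
The 2 arms of miR-1843a flank a loop, at nt 78 to 98 and nt 116 to 137 of the 139 nt of Scarna3b, and the 3p arm ends on the ACA letters. miR-664-3p likewise ends near the ACA box of Snora36b, 5 nt short of the gene's end. The map of entries within their genes shows the 5′ placement of both C/D entries and the others beyond the midpoint of their GENCODE genes. Of the latter, only miR-1843a-3p and miR-664-3p lie at the 3′ end, and the others have 40 to 42 nt of the gene after them.

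**Figure D1:**
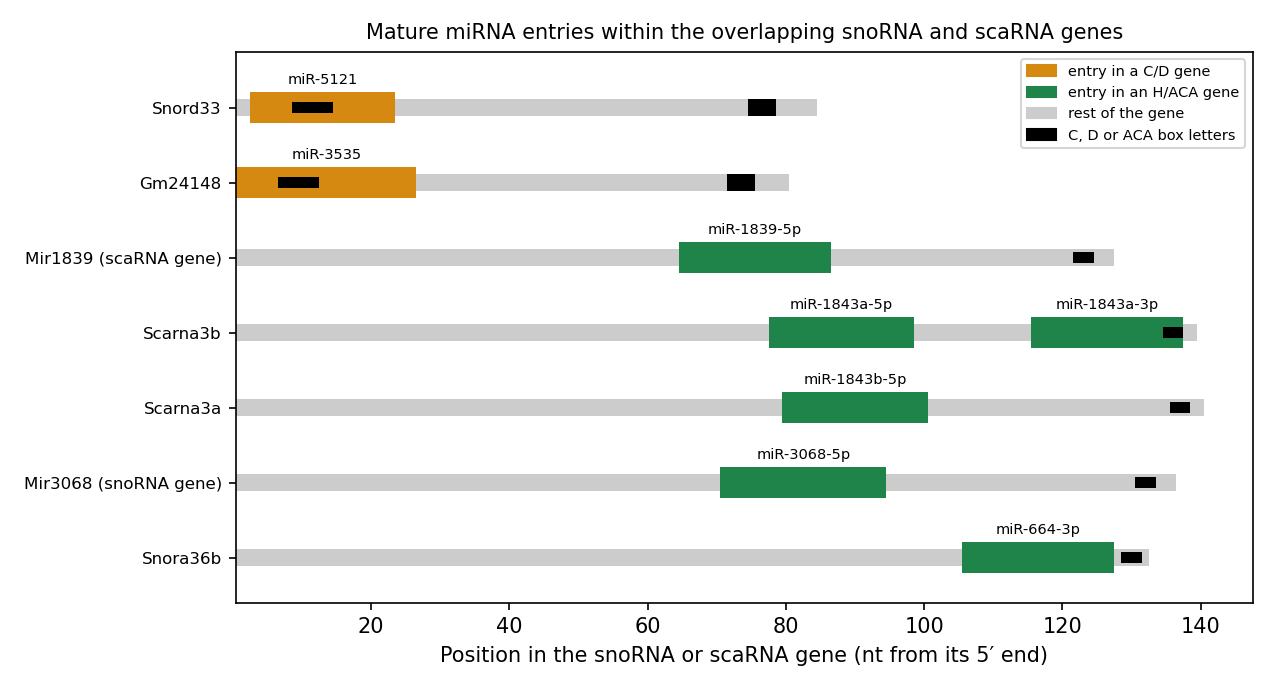
Position of each counted entry (coloured) within the snoRNA or scaRNA gene that contains it (grey), in nt from the gene's 5′ end, with the C, D or ACA letters in black. Gene ends are those of GENCODE. The C/D entries miR-5121 and miR-3535 start at nt 3 and nt 1, and the 6 H/ACA entries start at nt 65 or later.

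Total counts were lowest in ConA+Vehicle (381274 and 322764) and ran from 690713 to 1172389 in the other 4 libraries, so that 3 counts stood for 2.63 to 9.93 CPM (counts scaled by library size and TMM factor). The arms of the immune-cell miRNA miR-142a took 2.53% to 7.31% of all counts in Vehicle, 9.03% to 10.3% in ConA+Vehicle and 7.72% to 11.2% in ConA+D8THC. Markers of other liver cells were counted in every library: endothelial miR-126a arms took 12.8% to 34.2% and 6 hepatocyte miRNAs 5.18% to 19.75%. Which cells this RNA came from was not tested. In such bulk libraries fewer cells of a type and less RNA per cell cannot be told apart.

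Together the 8 entries were a small part of each library. Their summed share of a library was 0.0753% ± 0.0126 (SD, n = 2) for Vehicle, against 0.152% ± 0.00552 for ConA+Vehicle and 0.0818% ± 0.00431 for ConA+D8THC. The higher share in ConA+Vehicle lay with the C/D entries, at 0.0147% and 0.0131% in the Vehicle libraries, 0.0829% and 0.0837% in ConA+Vehicle, and 0.0161% and 0.0281% in ConA+D8THC. The H/ACA entries took 0.0533% to 0.0695%, 0.0648% to 0.0719% and 0.0507% to 0.0688% in the same order of groups, ranges that overlapped.

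The comparison of ConA+Vehicle with Vehicle shows how the entries differed in ConA hepatitis. The C/D entries miR-5121 and miR-3535 rose, and none of the H/ACA entries was called. By edgeR's quasi-likelihood test over all 297 miRNAs, 2 of the 8 entries were called (adjusted p under 0.05), both higher, where 36.7% of all tested miRNAs were called and 19.9% were called higher, so that 2 of 8 lies near the background. The same 2 had an unadjusted p under 0.05, against 44.4% of all tested miRNAs. The groups did not overlap for 4 entries, 3 higher and 1 lower, against 67.3% of all tested miRNAs (38% higher and 29.3% lower). The median log2 fold change was 0.26 over the 8 entries, -0.045 over the 6 H/ACA entries and 0.10 over all tested miRNAs.

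miR-5121 lies at the 5′ end of Snord33. It was at 46.9 and 37.7 CPM in the Vehicle libraries, 453.8 and 436.9 in ConA+Vehicle, and 33.0 and 81.1 in ConA+D8THC. Both ConA+Vehicle libraries stood above every other library, while the ConA+D8THC libraries lay on either side of Vehicle. Against Vehicle the difference in ConA+Vehicle was log2 3.40 ± 0.42 (SE), 10.56-fold, with an adjusted p of 0.000348, and 97.3% of the tested miRNAs had a smaller log2 fold change.

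miR-3535 lies at the 5′ end of Gm24148. It was at 106.3 and 97.3 CPM in Vehicle, 334.1 and 456.7 in ConA+Vehicle, and 118.7 and 194.9 in ConA+D8THC. The 3 groups did not overlap, with Vehicle lowest and ConA+Vehicle highest. In ConA+Vehicle against Vehicle it rose 3.88-fold (log2 1.96 ± 0.33, adjusted p = 0.00100). Both calls were kept in all 15 alternative fits, with log2 values from 3.25 to 3.54 for miR-5121 and from 1.74 to 2.19 for miR-3535.

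Other measures of the libraries moved with this rise. The ConA+Vehicle libraries were the shallowest. The summed share of the 6 hepatocyte miRNAs was 8.35% to 13.9% in Vehicle and 17.1% to 19.75% in ConA+Vehicle, with 4 of 6 higher and 1 lower. Those called higher were miR-192-5p, miR-194-5p, miR-148a-3p and miR-802-5p. Of the miR-122 arms, miR-122-3p was called lower (log2 -1.19, edgeR adjusted p = 0.0167) and miR-122-5p was not called (log2 0.62, edgeR adjusted p = 0.124). The arms of the myeloid miRNA miR-223 went from 0.3327% and 0.3532% to 2.75% and 2.92% of counts, with 2 of 2 higher, and the endothelial pair went the other way, with 2 of 2 lower. Each of these summed shares was above 0 in all 6 libraries. The part of cell makeup and depth in the rise was not tested.

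The most abundant H/ACA entry by counts, miR-1839-5p, was at 402.9 and 319.1 CPM in Vehicle, 376.5 and 516.3 in ConA+Vehicle, and 404.5 and 331.5 in ConA+D8THC. Its groups overlapped in every pairing, and the log2 difference in ConA+Vehicle against Vehicle was 0.30 ± 0.26 (adjusted p = 0.412). With 1588 counts over the 6 libraries it gives the firmest reading of an H/ACA entry here.

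In ConA+Vehicle the 5p arms of the Scarna3 pair were lower in the mean than in Vehicle, with overlapping libraries. miR-1843a-5p was at 127 and 91.2 CPM in Vehicle, 94.7 and 69.5 in ConA+Vehicle, and 96.0 and 65.4 in ConA+D8THC, with a log2 value of -0.39 ± 0.37 in ConA+Vehicle against Vehicle. miR-1843b-5p was at 86.9 and 54.4 CPM, 39.9 and 76.1, and 49.5 and 42.7 in the same order, with a log2 value of -0.30 ± 0.41. Neither passed the test. With both counted as a single entry because of their shared 20-base run, the log2 value was -0.36 (edgeR adjusted p = 0.444).

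miR-3068-5p was at 67.6 and 43.8 CPM in Vehicle, 67.3 and 59.6 in ConA+Vehicle, and 77.4 and 44.1 in ConA+D8THC. The libraries of the 3 groups were interleaved, and the log2 value in ConA+Vehicle against Vehicle was 0.21 ± 0.40. miR-664-3p rested on few counts, with 13 and 24 in Vehicle, 6 and 5 in ConA+Vehicle and 10 and 7 in ConA+D8THC. These stood for 17.9 and 21.0, 15.0 and 16.6, and 10.3 and 9.96 CPM. Its groups stood in the order Vehicle, ConA+Vehicle, ConA+D8THC without overlap, but the steps of log2 -0.33 ± 0.47 and -0.62 ± 0.53 did not pass the test.

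**Figure D2:**
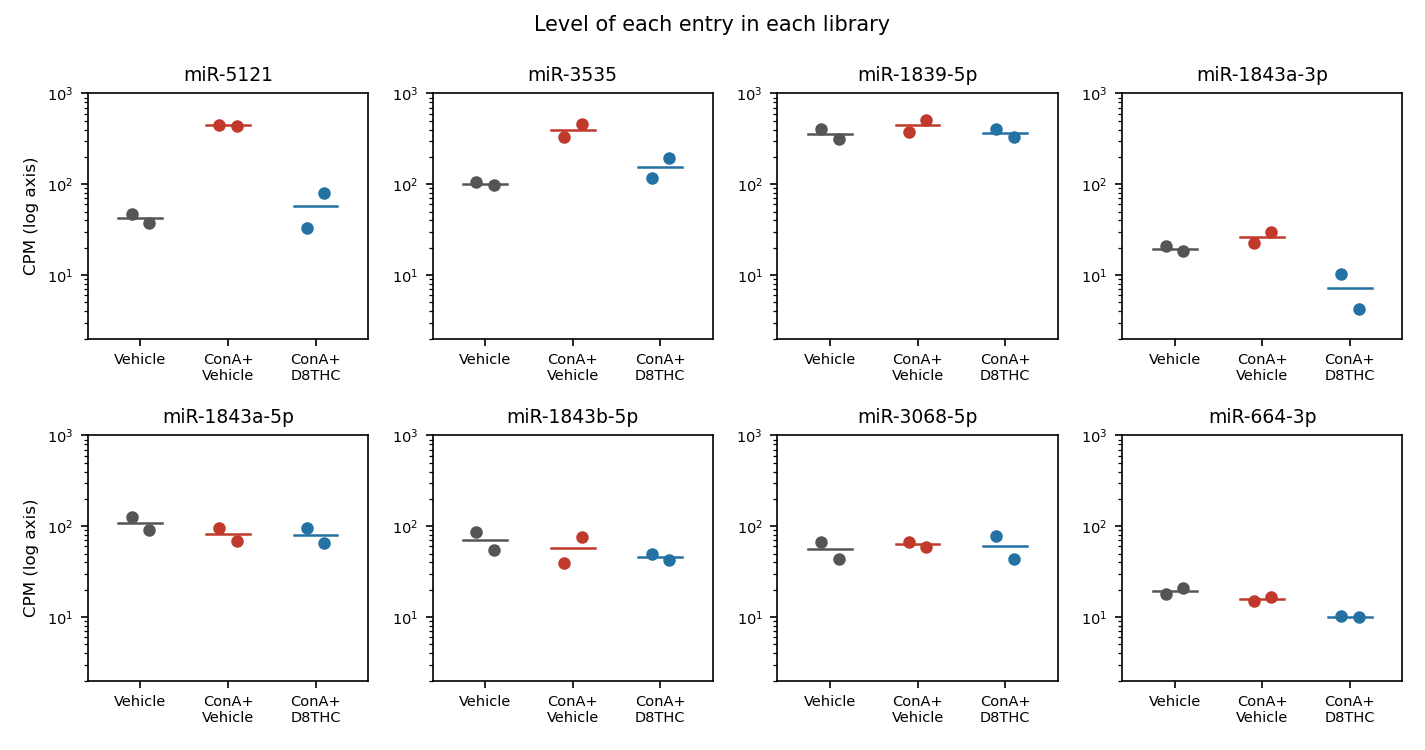
Level of each entry in each library, in CPM on a log axis, with points for the 2 libraries of a group and a line for their mean. For miR-5121 the ConA+Vehicle libraries lie at 453.8 and 436.9 CPM, above all others, while miR-1839-5p lies between 319.1 and 516.3 CPM in all 6 libraries.

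The effect of adding D8THC to ConA was read from ConA+D8THC against ConA+Vehicle. The same 2 C/D entries fell, and no H/ACA entry was called. Of the 8 entries, 2 were called lower and 0 higher, where 3.7% of all tested miRNAs were called, all of them lower. That is a larger share than the background, but of entries chosen with results of these libraries known. An unadjusted p under 0.05 was found for 3 entries, the third being miR-1843a-3p, against 18.9% of all tested miRNAs. The groups did not overlap for 4 entries, all lower, against 46.8% of all tested miRNAs (25.3% lower), and these were miR-5121, miR-3535, miR-1843a-3p and miR-664-3p. The median log2 fold change was -0.46 over the 8 entries, -0.29 over the H/ACA entries and -0.042 over all tested miRNAs. This comparison shares the ConA+Vehicle libraries with the comparison above, so that a high value in those libraries enters both with opposite sign.

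miR-5121 went from 445.3 ± 12.0 CPM (SD, n = 2) in ConA+Vehicle to 57.1 ± 34.0 in ConA+D8THC. This was 7.92-fold lower (log2 -2.98 ± 0.41, edgeR adjusted p = 0.00399), and it was called in 15 of 15 alternative fits. The size of this fall varied with the ConA+D8THC libraries, at log2 -2.44 without replicate 1 and -3.72 without replicate 2. miR-3535 went from 395.4 ± 86.7 to 156.8 ± 53.9 CPM (log2 -1.34 ± 0.32), 2.53-fold lower, with an edgeR adjusted p of 0.0433 that ranged from 0.000570 to 0.217 over the alternatives. That call ended without ConA+Vehicle replicate 2 (adjusted p = 0.217), without ConA+D8THC replicate 1 (0.108) and with library totals in place of TMM factors (0.0582).

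Hepatocyte miRNAs moved with this fall, from 17.1% and 19.75% of counts to 5.18% and 7.15%, with 4 of 6 lower. The pancreatic acinar markers miR-216a-5p and miR-217-5p, summed, took 0.00371% and 0.00512% of counts in Vehicle and 0.00420% and 0.00341% in ConA+Vehicle. They were at 0 in both ConA+D8THC libraries, and 2 of 2 were lower. Against Vehicle, too, 4 of 6 hepatocyte miRNAs and 2 of 2 acinar markers were lower in ConA+D8THC, where 0 of the 8 entries were called. The myeloid miR-223 arms were at 1.48% and 2.17% of counts in ConA+D8THC, with 0 of 2 called by edgeR. The part of these cell types in the fall of the C/D entries was not tested.

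Among the H/ACA entries the lowest value was that of miR-1843a-3p, the arm that ends on the ACA box of Scarna3b. It was at 20.7 and 18.4 CPM in Vehicle, 22.4 and 29.8 in ConA+Vehicle, and 10.3 and 4.27 in ConA+D8THC, and both ConA+D8THC libraries were below all others. The last of these values is a count of 3. The log2 value against ConA+Vehicle was -1.73 ± 0.55 (edgeR adjusted p = 0.106), and it was called with the replicate number as a block (0.0461) and without Vehicle replicate 2 (0.0489). Over the alternatives its adjusted p lay between 0.0461 and 0.496. Its size depended on the ConA+D8THC libraries, at log2 -2.52 without replicate 1 and -1.28 without replicate 2. The opposite arm, miR-1843a-5p, was at log2 -0.028 ± 0.37, a sign that turned with DESeq2 size factors (0.081 in DESeq2), library totals (0.031) and no filter (0.044).

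The remaining H/ACA entries were at log2 -0.27 ± 0.26 (miR-1839-5p), -0.30 ± 0.42 (miR-1843b-5p) and -0.053 ± 0.40 (miR-3068-5p). None passed the test, and the sign of miR-3068-5p turned with DESeq2 size factors (0.051 in DESeq2), library totals (0.012) and no filter (0.017). Without ConA+Vehicle replicate 2 the signs of miR-1839-5p (0.024) and miR-1843b-5p (0.27) turned as well.

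**Figure D3:**
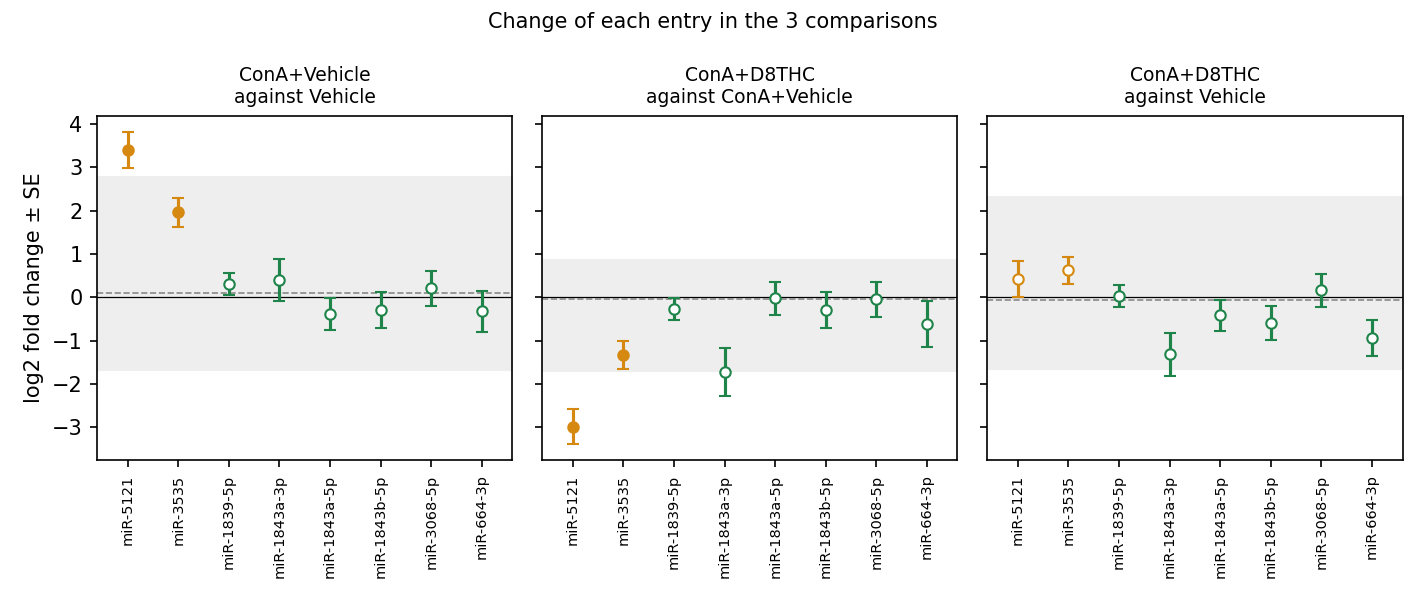
Change of each entry in the 3 comparisons, as the log2 fold change with its SE, with filled points for an adjusted p under 0.05 in edgeR. The grey band spans the 5th to 95th percentile of all 297 tested miRNAs and the dashed line is their median. miR-5121 lies outside the band in the first and second panels, at 3.40 and -2.98. In the second panel miR-1843a-3p, which was not called, lies just below the band, at -1.73 against a lower edge of -1.70.

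ConA+D8THC was also compared with Vehicle. In this comparison edgeR called 0 of the 8 entries, where 32.7% of all tested miRNAs were called. DESeq2 and limma-voom also called 0, and 2 entries had an unadjusted p under 0.05, against 45.8% of all tested miRNAs. These were miR-1843a-3p (log2 -1.32 ± 0.50, adjusted p = 0.0617) and miR-664-3p (log2 -0.94 ± 0.42, adjusted p = 0.108). Groups did not overlap for 4 entries, against 74.7% of all tested miRNAs: both of these and miR-1843b-5p were lower (37% of all), and miR-3535 was higher (37.7%). miR-1843a-3p was called with the replicate number as a block (0.0405) and with upper-quartile factors (0.0398), in a range of 0.0398 to 0.351, and was at log2 -2.12 without ConA+D8THC replicate 1 and -0.86 without replicate 2. miR-5121 was at log2 0.42 ± 0.42 and turned sign without ConA+D8THC replicate 2 (-0.29), and miR-3535 was at log2 0.62 ± 0.32 (edgeR adjusted p = 0.152). The median log2 fold change was -0.19 over the 8 entries, -0.51 over the H/ACA entries and -0.064 over all tested miRNAs.

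The counts of the C/D entries were also set against those of the H/ACA entries within each library, a share that does not depend on the scaling between libraries. The C/D entries held 17.5% and 19.8% of the counts of the 8 entries in Vehicle, with 95% Clopper-Pearson intervals of 14.6% to 20.7% and 17.0% to 22.7%. In ConA+Vehicle they held 56.1% (51.9% to 60.3%) and 53.8% (49.3% to 58.2%), so that more than 1 in 2 counts came from the C/D pair. In ConA+D8THC replicate 1 the share was 19.0% (16.3% to 21.9%), within the range of Vehicle, and in replicate 2 it was 35.7% (31.6% to 39.9%), between the other groups. The intervals cover counting error only, and since 2 against 2 libraries cannot go below an exact two-sided permutation p of 1 in 3, no test was made. The C/D and H/ACA split was drawn with these values known.

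**Figure D4:**
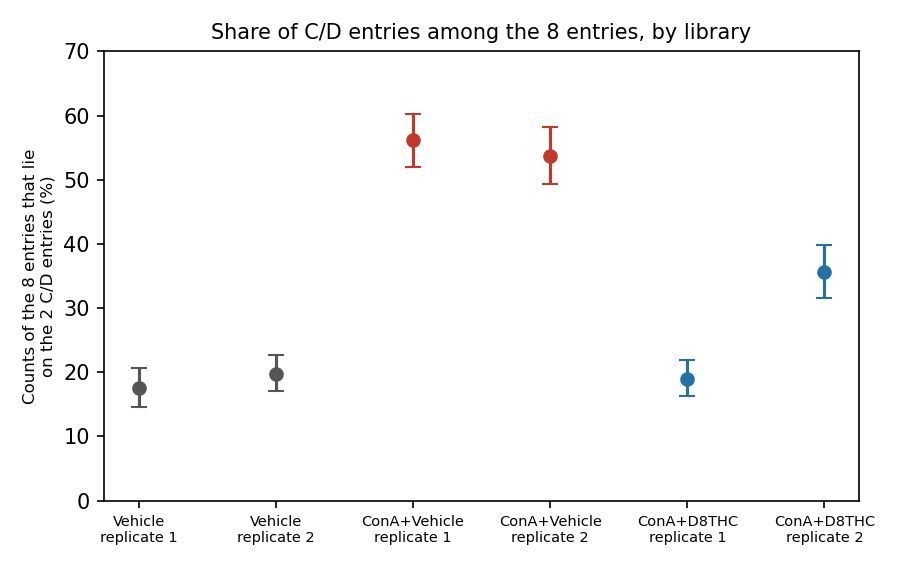
Percentage of the counts of the 8 entries that lie on the C/D entries miR-5121 and miR-3535, by library, with 95% Clopper-Pearson intervals. The ConA+Vehicle libraries lie at 56.1% and 53.8%, and the ConA+D8THC replicates differ from each other, at 19.0% and 35.7%.

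Within the C/D pair, miR-5121 changed by more. The ratio of miR-5121 to miR-3535 counts was 0.442 and 0.387 in Vehicle, 1.36 and 0.957 in ConA+Vehicle, and 0.278 and 0.416 in ConA+D8THC. Only the ConA+Vehicle libraries had a ratio near or above 1. This difference between the entries was not tested.

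Arms of a hairpin were compared by the share of counts on the 5p arm. That share was 97.7% to 100% for miR-1839, 81.7% to 94.9% for miR-3068 and 88.2% to 100% for miR-1843b over the 6 libraries. In these 3 hairpins the 5p arm held most of the counts in every library. miR-1843a had 86.0% and 83.2% on the 5p arm in Vehicle, 80.9% and 70% in ConA+Vehicle, and 90.3% and 93.9% in ConA+D8THC. Its groups did not overlap, but the intervals did: 50.6% to 85.3% in ConA+Vehicle replicate 2 against 82.9% to 95.3% in ConA+D8THC replicate 1. miR-664 differed from the other hairpins, with 25% to 53.3% on the 5p arm, on 7 to 32 counts per library. Its share was 27.8% and 25% in Vehicle, 40% and 28.6% in ConA+Vehicle, and 50% and 53.3% in ConA+D8THC. The groups of miR-664 did not overlap either, but the intervals did: 11.5% to 43.4% in Vehicle replicate 2 against 27.2% to 72.8% in ConA+D8THC replicate 1. The opposite arms miR-1839-3p, miR-1843b-3p, miR-3068-3p and miR-664-5p had 17, 23, 37 and 37 counts over all libraries and did not pass the filter.

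Other listed entries inside snoRNA and scaRNA genes were close to the limit of detection. RefSeq positions were matched for 1671 of the 1960 listed entries, and 22 of these had a hairpin overlapping a snoRNA or scaRNA gene, 8 of them the entries described here. With miR-1839-3p, which has no RefSeq position, 15 other entries remained, of which 12 had a count and 0 passed the filter, so none was tested. The best covered beyond the opposite arms was miR-1291, in the H/ACA gene Snora34, with 11 and 9 counts in Vehicle, 2 and 3 in ConA+Vehicle, and 2 and 1 in ConA+D8THC. The other C/D gene with listed entries, Mir677, gave 0 and 4, 2 and 2, and 6 and 4 counts of miR-677-5p in the same order. Vehicle and ConA+D8THC did not overlap for miR-1291, at 15.2 and 7.89 against 2.06 and 1.42 CPM. The same held for 74.7% of all tested miRNAs (37% lower), and no test was made of miR-1291 or miR-677-5p.

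The miRNAs with the pattern most like each C/D entry were sought among 291 others with a mean of at least 10 CPM, by Pearson's r of log2 CPM over the 6 libraries, which share depth and scaling. The nearest to miR-5121 were miR-3535 (r = 0.965), miR-378c (0.954) and miR-6236 (0.946). The nearest to miR-3535 were miR-6236 (0.993), miR-6238 (0.974) and miR-101b-3p (0.969). miR-6236, an entry listed as a possible fragment of another RNA, had 0 and 0 counts in Vehicle, 14 and 16 in ConA+Vehicle, and 2 and 8 in ConA+D8THC. Its r therefore rests in part on floor values that a prior count of 2 sets for the Vehicle libraries, and it is no measure of likeness there. Of 7 tested entries on that list of possible fragments, which was drawn up with these results known, 5 rose in ConA+Vehicle against Vehicle, where 19.9% of all tested miRNAs were called higher, and 2 fell in ConA+D8THC against ConA+Vehicle, where 3.7% were called lower. Because of how the list was made, nothing is read from these counts.

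The H/ACA entries had other neighbours. miR-1839-5p was nearest to miR-26a-2-3p (r = 0.974), miR-1843a-3p to miR-345-5p (0.930), miR-1843a-5p to let-7i-3p (0.954) and miR-1843b-5p to miR-181c-5p (0.890). miR-3068-5p was nearest to miR-15b-5p (0.865) and miR-664-3p to miR-217-5p (0.984). miR-217-5p had 0 counts in both ConA+D8THC libraries, so its r rests in part on floor values set by the prior count. It is no measure of likeness in those libraries. Among the entries themselves the pair miR-5121 and miR-3535 had the highest r of all 28 pairs, while the arms miR-1843a-5p and miR-1843a-3p of a single hairpin had an r of 0.353, and miR-1843a-5p and its near-copy miR-1843b-5p one of 0.353.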

How the data were processed

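Values were the authors' deposited raw counts of each mature miRNA. Per the labels' protocols, QIAseq reads were aligned and counted in the GeneGlobe portal of QIAGEN, and build mm10 is named in the submitters' processing notes. Not given in the sources used here are the aligner, the miRNA release, how reads matching a snoRNA or more than 1 entry were handled, and whether molecular identifiers were used.

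The main test was that of edgeR 4.0.16 in R 4.3.3 (filterByExpr by group, TMM factors, robust glmQLFit, glmQLFTest, a group design over all 6 libraries with 3 residual degrees of freedom). Benjamini-Hochberg adjustment ran over all 297 tested miRNAs for each contrast, with calls at an adjusted p under 0.05. Standard errors were derived as |log2 fold change| divided by sqrt(F). TMM factors also entered the CPM. The alternatives were DESeq2 1.42.0, limma-voom (limma 3.58.1), a replicate block, 3 other scalings, no filter, 2 against 2 libraries, miR-1843a-5p and miR-1843b-5p summed, and leaving out each library. The edgeR procedure was tested on simulated data. Total counts were 322764 to 1172389 per library, and intervals cover counting error only.

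Sequences and positions came from RefSeq (GRCm38.p6) and GENCODE M21, with an overlap of at least 1 nt counted. Members and lists were chosen with earlier results of these data known. The rule for naming took all members, their opposite arms, other entries overlapping snoRNA or scaRNA genes, and the 3 nearest miRNAs by Pearson's r, of which the nearest is given for H/ACA entries. Plots were drawn in Python 3.11.15 with matplotlib 3.10.9.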

Additional observations from a re-analysis of the deposited data

How the results depend on the processing

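The rise of miR-5121 and miR-3535 in ConA+Vehicle against Vehicle was called in all 15 alternative fits, which called 2 entries each. In ConA+D8THC against ConA+Vehicle 2 entries were called, and 1 was called with library totals. Leaving out a library gave 1 to 3, with miR-3535 lost without ConA+Vehicle replicate 2 or ConA+D8THC replicate 1 and miR-1843a-3p gained without Vehicle replicate 2. In ConA+D8THC against Vehicle 0 entries were called in the main test and 1 with upper-quartile factors, and leaving out a library gave 0 to 0. The replicate block called 3 entries in ConA+D8THC against ConA+Vehicle and 1 in ConA+D8THC against Vehicle, the added entry being miR-1843a-3p in both, and it moved the calls over all miRNAs in the former from 11 to 44. Deviations of same-numbered libraries from their group means correlated at 0.203, 0.238 and 0.0726 between the groups, and the labels do not say what the number marks. Where leaving out a library left a group with 1, that library was taken to vary like the others. Over all miRNAs, the 11 calls in ConA+D8THC against ConA+Vehicle became 19 with no filter, 18 from 2 against 2 libraries, 17 in DESeq2 as in edgeR with upper-quartile factors, and 8 to 40 on leaving out a library. The 109 calls in ConA+Vehicle against Vehicle fell to 67 without ConA+Vehicle replicate 1, and the 97 in ConA+D8THC against Vehicle to 63 without ConA+D8THC replicate 1.

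Values that turned sign were all of entries that were not called in that comparison. In ConA+Vehicle against Vehicle, leaving out a library took miR-1843b-5p from log2 -0.76 to 0.15 and miR-3068-5p from -0.076 to 0.52. In ConA+D8THC against ConA+Vehicle, miR-1843a-5p was at 0.081 in DESeq2, 0.080 with its size factors in edgeR, 0.031 with library totals and 0.044 with no filter, and between -0.32 and 0.25 without a library. There miR-3068-5p was at 0.051, 0.055, 0.012 and 0.017 under the same settings and between -0.51 and 0.31 without a library, while miR-1839-5p ran from -0.49 to 0.024 and miR-1843b-5p from -0.72 to 0.27. In ConA+D8THC against Vehicle, miR-1839-5p was at -0.034 with upper-quartile factors and from -0.10 to 0.23 without a library, miR-3068-5p from -0.30 to 0.56 and miR-5121 from -0.29 to 0.96. The cause was not tested.

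Of the other scalings in edgeR, DESeq2 size factors moved the median of all miRNAs from 0.0996 to -0.0064 in ConA+Vehicle against Vehicle and from -0.042 to 0.062 in ConA+D8THC against ConA+Vehicle. Upper-quartile factors moved the latter to -0.151, and library totals moved that of ConA+D8THC against Vehicle from -0.064 to 0.044. With miR-126a-3p and miR-122-5p taken out of the total, the 8 entries held 0.116% of Vehicle counts, 0.202% of those in ConA+Vehicle and 0.106% with ConA+D8THC. With miR-1843b-5p added, the 5p share of miR-1843a was 89.98%, 84.4% and 94.8%. Depth limits miR-664-3p, miR-1843a-3p and the opposite arms, which had 24 counts or fewer per library.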
